A study of Mus musculus with 6 samples.

Results

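Mecom, Prdm16, Prdm1 and Prdm2 encode transcription factors of the Prdm family, and these 4 genes were taken by their symbols, older names such as Evi1 included, from 18193 genes on the array. The 4 genes had 11 probe sets annotated to 1 of them alone, namely 3 for Mecom, 4 for Prdm16, 1 for Prdm1 and 3 for Prdm2. Each gene was represented by the probe set with the highest mean over all arrays. RNA came from blood-forming cells of wild-type C57BL/6 mice, sorted by flow cytometry as LSK cells (low in lineage markers, Sca1+, Kit+), a fraction with stem cells and multipotent progenitors, and as LK cells (low in lineage markers, Sca1-, Kit+), a fraction of committed progenitors. There were 3 arrays of each. The series title names Musashi 2, but both populations were wild type, and no treatment, transgene or deletion is given in the labels. The age of the animals and whether RNA of several mice was pooled are not given in the sources used here. Whether each array stands for its own animal is not stated, and the p-values cover only the spread among these samples, which may be technical.

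Prdm proteins carry a PR domain, related to the SET domain of histone methyltransferases, and usually an array of zinc fingers that bind DNA. Mecom, also known as Evi1 or Prdm3, and its close paralog Prdm16, also known as Mel1, are needed for the maintenance of blood stem cells, and both genes are activated by chromosomal rearrangements in myeloid leukaemia. Prdm1, also known as Blimp-1, is a repressor that drives plasma cell differentiation and acts in T cells and macrophages, and Prdm2, also known as Riz, is a widely expressed factor with a tumour suppressor role.

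The labelled populations were checked on marker genes with limma, adjusted over all genes. In LSK cells 4 of 5 measured stem and multipotent progenitor markers were higher, and 4 of 5 erythroid and 4 of 5 granulocyte and monocyte markers were lower. Of 4 megakaryocyte markers 0 passed, 3 of them with an unadjusted p under 0.05, and 1 was higher and 1 lower with replicate numbers as a block. Over all 18193 genes a limma p of 0.0499 ranked 4082, so unadjusted p-values under 0.05 were common. At the adjusted threshold 3.84% of all genes were higher in LSK and 2.89% lower. With the block 1278 of all genes were higher and 1339 lower. Median intensities of the 6 arrays ranged from 7.88 to 8.49, and precision is limited by how few arrays there are. Control probe sets at the 3' end exceeded those at the 5' end, a gap that widens with RNA decay or short amplified products, by a mean log2 of 2.64 ± 0.56 in LSK and 3.53 ± 0.36 in LK (SD, n = 3 each; two-sided exact permutation p = 0.2, with 0.1 the smallest possible).

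Mecom is transcribed from a distal and a proximal start, and the long product of the distal start, Mds1-Evi1, has the PR domain that the Evi1 product of the proximal start lacks. RefSeq's promoter table of build GRCm38.p6 matched 3 of the 4 members, with 2 windows for Mecom and 1 each for Prdm16 and Prdm1, and the Mecom starts lay 496.6 kb apart. The 250 bases before each start of Mecom and Prdm16 are shown because the transcripts of these genes differed between the populations. All 3 lie on the minus strand, the distal Mecom stretch at chr3:30509760-30510009, the proximal one at chr3:30013205-30013454 and that of Prdm16 at chr4:154636874-154637123. Capitals mark matches to GATA, the core bound by GATA factors, and to GACAAGAT, a part of the sequence bound by the first zinc finger domain of Evi1, on either strand.
Mecom, distal start: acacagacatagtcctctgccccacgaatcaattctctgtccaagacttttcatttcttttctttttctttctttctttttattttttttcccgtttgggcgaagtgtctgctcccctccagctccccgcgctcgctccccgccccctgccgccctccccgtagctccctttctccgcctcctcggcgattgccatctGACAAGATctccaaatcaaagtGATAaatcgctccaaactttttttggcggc
Mecom, proximal start: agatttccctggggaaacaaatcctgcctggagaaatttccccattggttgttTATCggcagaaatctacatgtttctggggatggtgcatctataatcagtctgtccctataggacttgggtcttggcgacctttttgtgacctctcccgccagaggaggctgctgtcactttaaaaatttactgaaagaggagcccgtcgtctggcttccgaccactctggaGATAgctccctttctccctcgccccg
Prdm16: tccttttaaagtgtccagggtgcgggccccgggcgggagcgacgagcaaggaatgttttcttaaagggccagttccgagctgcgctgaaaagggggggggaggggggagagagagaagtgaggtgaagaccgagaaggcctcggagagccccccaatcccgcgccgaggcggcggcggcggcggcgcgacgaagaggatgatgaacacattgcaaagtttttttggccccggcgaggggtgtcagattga

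The distal Mecom window held 1 match to GACAAGAT and 1 to GATA, which do not overlap, and the proximal window held 2 matches to GATA and 0 to GACAAGAT. In the windows of Prdm16 and Prdm1 there were 0 matches to either. Of all 32851 RefSeq promoter windows of 300 bases, 0.737% held GACAAGAT and 57.9% held GATA on either strand. These are matches of letters, and binding was not measured.

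The distal Mecom window and the Prdm16 window shared an unbroken run of 24 bases just after their starts, which is shown because it is common to the paralogs whose transcripts were higher in LSK. It covered bases 27 to 50 after the distal Mecom start (chr3:30509710-30509733) and bases 10 to 33 after the Prdm16 start (chr4:154636841-154636864), both on the minus strand, and is printed in capitals after the 6 bases that precede it.
Mecom, distal start: tctaacGCGCATGTGCGAAGGTGTCCAAAC
Prdm16: ctctgtGCGCATGTGCGAAGGTGTCCAAAC
Of the 32851 windows, 2 held this run on either strand, namely these, and for Mecom it reached the last base of the window. The longest run shared by any other pair of the members' windows had 15 bases and was common to the distal and proximal Mecom windows. The deposited values do not tell which Mecom start was used, since the positions of the probes are not analysed here.

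Mecom was far higher in LSK than in LK cells. Its brightest probe set, 1438325_at, had log2 intensities of 10.90, 11.12 and 10.76 in LSK replicates 1, 2 and 3 and of 6.57, 6.05 and 5.57 in the LK replicates. All LSK arrays lay far above all LK arrays, and the LK arrays were more spread (SD 0.50, against 0.18 in LSK). The log2 difference was 4.87 (SE 0.26, 95% interval 4.24 to 5.49), or 29.2-fold (limma adjusted p = 0.000685 over all genes). In bulk samples such as these, fewer cells with the transcript and less transcript per cell cannot be told apart.

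Prdm16 was also higher in LSK. Its brightest probe set, 1440870_at, had log2 intensities of 6.71, 6.81 and 6.68 in LSK replicates 1, 2 and 3 and of 3.67, 3.22 and 3.26 in the LK replicates. The LSK arrays agreed within an SD of 0.07, and the LK values lay close to the median of all probe sets on the array, a log2 of 3.02, so the fold may be understated. This probe set was the brightest of the gene on the LSK arrays but not on the LK arrays. Its choice by the mean over all arrays therefore favours a larger difference. The log2 difference was 3.35 (SE 0.16, 95% interval 2.97 to 3.73), or 10.2-fold (limma adjusted p = 0.000597). By size, the difference of Mecom ranked 5 and that of Prdm16 ranked 45 among the 18193 genes toward LSK.

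Prdm1 was dim in both populations. Its single probe set, 1420425_at, had log2 intensities of 3.20, 3.41 and 3.41 in LSK and of 2.59, 3.03 and 3.43 in LK. The groups overlapped, since LK replicate 3 was above every LSK array while LK replicates 1 and 2 were below all of them. The log2 difference of 0.32 (SE 0.23, 95% interval -0.22 to 0.86) did not pass limma's threshold (adjusted p = 0.476).

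Prdm2 had log2 intensities of 5.05, 4.53 and 5.41 in LSK and of 4.89, 5.54 and 5.12 in LK on its brightest probe set, 1429251_at. The groups overlapped, and the arrays numbered 2 were the lowest of LSK and the highest of LK. The log2 difference was -0.19 (SE 0.27, 95% interval -0.83 to 0.45) and did not pass (limma adjusted p = 0.745). The sign turned without LSK replicate 2 (0.043), and, as described with the probe sets, this gene's value depended on which probe set stood for it.

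Of the 4 genes, 2 therefore rose toward LSK and 0 fell, where 3.84% of all genes were higher in LSK at the same threshold and 2.89% lower (6.73% together). Mecom and Prdm16 passed in all 16 alternative analyses, including each one that left out 1 array, with adjusted p up to 0.046 for Mecom and 0.0376 for Prdm16. Both of these highest values came from the fit with the 3' over 5' gap of the controls as a covariate, in which 25 of all genes passed.

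**Figure D1:**
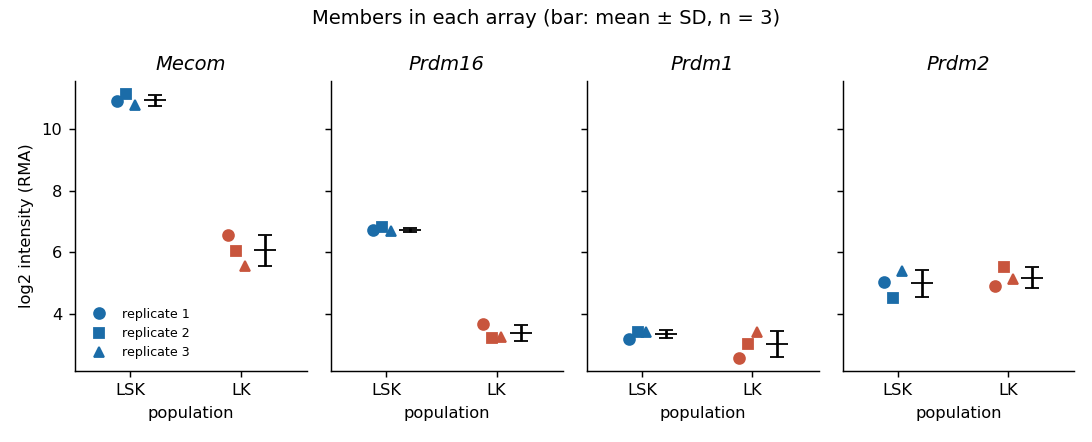
Log2 intensity (RMA) of the brightest probe set of each member in the 3 LSK and 3 LK arrays, with a symbol per replicate number and the mean ± SD beside the points. For Mecom (10.76 to 11.12 against 5.57 to 6.57) and Prdm16 (6.68 to 6.81 against 3.22 to 3.67) the populations are apart, and for Prdm1 and Prdm2 they overlap.

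Not every probe set of Mecom and Prdm16 passed the test. Over all 11 probe sets of the 4 genes, 3 passed limma's threshold adjusted over 45037 probe sets, all higher in LSK, where 2.03% of all probe sets did so. In 5 of the 11 every LSK array was above every LK array, where 11.9% of all probe sets showed this.

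For Mecom, 1 of 3 probe sets passed. Probe set 1422295_at had log2 intensities of 2.95, 2.84 and 2.76 in LSK and of 2.55, 2.78 and 2.82 in LK, and 1423011_at had 2.44, 2.77 and 2.52 in LSK and 2.36, 2.48 and 2.55 in LK. These values lay below the array's median, at most at the 39.7th percentile of all probe sets in LSK and the 26.6th in LK, while 1438325_at lay at the 98.8th in LSK and the 83.4th in LK. Their log2 differences were 0.13 (95% interval -0.18 to 0.45, adjusted p = 0.672) and 0.11 (95% interval -0.22 to 0.44, adjusted p = 0.738). The annotation ties them to different RefSeq transcripts of Mecom and gives no transcript for 1438325_at. The mean over the 3 probe sets passed over all genes, with a log2 difference of 1.70 (limma adjusted p = 0.00159) that comes mostly from 1438325_at.

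For Prdm16, 2 of 4 probe sets passed. Besides 1440870_at, probe set 1440745_at had log2 intensities of 5.99, 5.11 and 5.44 in LSK and of 4.0, 3.91 and 3.69 in LK. The populations were apart on probe set 1440745_at as well, by 1.64 on the log2 scale (SE 0.24, adjusted p = 0.0208), or 3.12-fold. Within arrays, 1440870_at minus 1440745_at was 0.72 to 1.70 in LSK and -0.69 to -0.34 in LK, so 1440745_at was the brighter one in LK. The call of 1440745_at was lost without LSK replicate 1 (adjusted p = 0.0508), LK replicate 1 (0.0557), LK replicate 2 (0.0532) or LK replicate 3 (0.0932), with log2 differences from 1.41 to 1.86 over these and the other alternatives.

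The other 2 Prdm16 probe sets, 1429309_at and 1429308_at, share an annotated source transcript and were dim. Probe set 1429309_at had log2 intensities of 3.19, 3.24 and 3.16 in LSK and of 3.08, 3.10 and 2.92 in LK, without overlap, but the log2 difference was 0.16 (adjusted p = 0.542). Probe set 1429308_at had 2.56, 2.99 and 2.78 in LSK and 2.81, 2.38 and 2.63 in LK, with overlap and a log2 difference of 0.17 (adjusted p = 0.68).

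For Prdm2, 0 of 3 probe sets passed, and their log2 differences had both signs. Probe set 1453068_at, annotated to the same source transcript as the brightest one, had log2 intensities of 4.86, 5.34 and 4.79 in LSK and of 3.72, 4.26 and 3.89 in LK. Here every LSK array was above every LK array, with a log2 difference of 1.03 (SE 0.21, 95% interval 0.53 to 1.53), or 2.05-fold, and an adjusted p of 0.0538 that missed the threshold. With the replicate number as a block this probe set passed (limma adjusted p = 0.0126). When it stood for the gene, as the probe set with the largest SD, Prdm2 was higher in LSK with a limma adjusted p of 0.0449 over all genes. That SD was taken over LSK and LK arrays together, so it grows with the difference between the populations. The choice therefore favours a larger difference and a smaller p on the same arrays, and this p-value is not independent evidence for Prdm2. The third probe set, 1444123_at, lay between 2.64 and 3.23 on all arrays and had a log2 difference of -0.22 (adjusted p = 0.549).

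**Figure D2:**
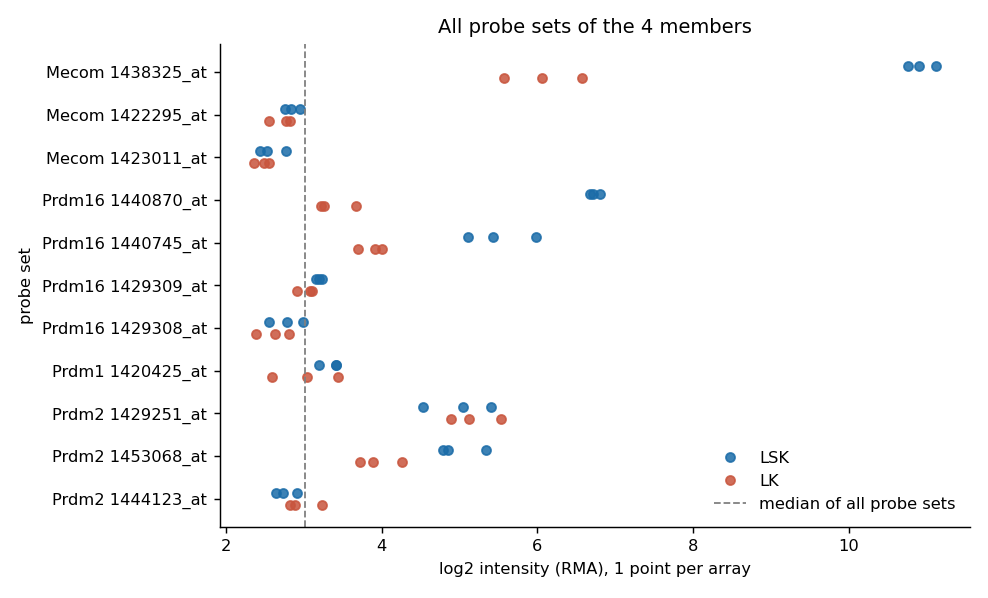
Log2 intensity (RMA) of the 11 probe sets of the 4 members, with 1 point per array, LSK above and LK below in each row, and a dashed line at 3.02, the median of all probe sets. Mecom 1438325_at and Prdm16 1440870_at and 1440745_at separate the populations, with LSK points well above the line. The LK points of the 2 Prdm16 probe sets lie nearer to the line. Prdm2 1453068_at separates the populations while 1429251_at does not.

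Unequal change between members, and between probe sets of 1 member, was tested within arrays by two-sided exact permutation of the arrays, in 13 comparisons. The smallest p that 3 arrays against 3 allow is 0.1, which 11 of the 13 reached (0.118 after Benjamini-Hochberg adjustment), so none could pass. The LSK difference of Mecom was 1.52 log2 units larger than that of Prdm16 (exact permutation p = 0.1). On each LSK array Mecom was 4.08 to 4.32 log2 units above Prdm16, and on each LK array 2.30 to 2.90, so the ranges did not overlap, and the dim LK values of Prdm16 limit how large its own difference can be. The brightest Prdm2 probe set and 1453068_at differed by -1.22 in their LSK difference (exact permutation p = 0.1). For Prdm1 against Prdm2 the difference was 0.51 (exact permutation p = 0.3).

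Endothelial cells also express Mecom and Prdm16, so their markers were set beside these genes. Of 6 endothelial markers, 1 was higher in LSK with limma (Emcn) and 0 lower, beside 3.84% and 2.89% over all genes. With replicate numbers as a block 2 were higher (Tek joined, limma adjusted p = 0.0131), where 1278 of all genes were. The summed intensity of the 6 markers ranged from 100.5 to 157.9 on the LSK arrays and from 57.96 to 88.27 on the LK arrays. Cdh5, the endothelial cadherin, had log2 intensities of 2.69, 2.80 and 2.66 in LSK and of 2.65, 2.93 and 2.64 in LK, close to the floor of the array in both.

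Plasma cells and macrophages express Prdm1, and their markers varied between arrays. For comparison, 3.84% of all genes were higher in LSK and 2.89% lower, and with replicate numbers as a block 1278 were higher and 1339 lower. Of 5 measured B and plasma cell markers, 1 was higher in LSK (Sdc1, also a gene of other cell types) and 0 lower, with a summed intensity of 174.0 to 640.9 on the LSK arrays and 49.69 to 59.40 on the LK arrays. Jchain, which joins secreted antibodies, had log2 intensities of 5.35, 2.58 and 8.94 in LSK and of 2.96, 3.10 and 3.16 in LK. Of 6 macrophage markers, 1 was higher in LSK (C1qb) and 0 lower, with a summed intensity of 48.32 to 81.15 in LSK and 52.41 to 333.0 in LK. Vcam1 had 3.63, 3.21 and 5.34 in LSK and 4.41, 6.70 and 8.23 in LK. Vcam1 passed toward LK with replicate numbers as a block (limma adjusted p = 0.0363) and not without it (0.222). Of 5 measured T and NK cell markers, 0 passed in limma and 0 had an unadjusted p under 0.05. The part of such cells in the values of Prdm1 was not tested.

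None of the other measured genes of the Prdm family passed the test between LSK and LK. Of 8 genes (Prdm4, Prdm6, Prdm8, Prdm9, Prdm10, Prdm11, Prdm14 and Prdm15), 0 passed limma's threshold and 1, Prdm4, had an unadjusted p under 0.05. At the threshold 3.84% of all genes were higher in LSK and 2.89% lower, and a limma p of 0.0499 ranked 4082 among 18193 genes. Their median log2 difference was 0.09, beside -0.02 over all genes. It was -0.09 over the genes left by the filter on dim probe sets, and from 0.03 to 0.16 without 1 array.

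Prdm4, a widely expressed factor, had log2 intensities of 4.47, 4.57 and 4.12 in LSK and of 4.05, 3.99 and 3.79 in LK. The populations did not overlap, which 11.9% of all probe sets showed in this direction. The log2 difference of Prdm4 was 0.44 (95% interval 0.05 to 0.84, limma adjusted p = 0.173). Prdm10 (7.16 ± 0.38 in LSK and 7.03 ± 0.23 in LK) and Prdm15 (7.85 ± 0.25 and 8.15 ± 0.17, all SD with n = 3) had the highest mean log2 intensities. Their log2 differences were 0.12 (95% interval -0.42 to 0.67, limma adjusted p = 0.81) and -0.30 (95% interval -0.71 to 0.12, limma adjusted p = 0.388). Prdm15 had 1 probe set, and Prdm10 was read on the brightest of 3. The other Prdm10 probe sets were dim (mean log2 2.79 and 2.69 in LSK), with log2 differences of -0.16 and 0.05.

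The other 5 were dim. Prdm9, the meiotic factor that places recombination sites, and Prdm14, a factor of germ cells and embryonic stem cells, had mean log2 intensities of 2.67 and 2.89 in LSK and of 2.76 and 2.84 in LK. Prdm6 had 2.73 and 2.69, Prdm8 3.17 and 2.80, and Prdm11 3.83 and 3.43 in LSK and LK. Their log2 differences lay between -0.09 for Prdm9 and 0.41 for Prdm11, and the limma adjusted p between 0.411 for Prdm8 and 0.91 for Prdm14. At this level a difference may be hidden by the floor of the array.

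**Figure D3:**
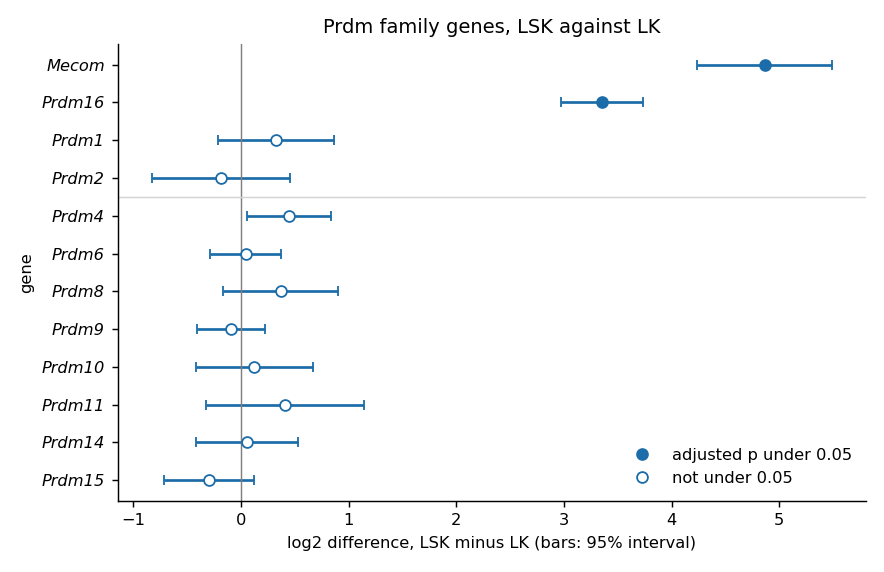
Log2 difference between LSK and LK with its 95% interval for the 4 members (above the line) and the 8 other measured Prdm genes, from the limma fit over all genes, filled where the adjusted p passed. Mecom (4.87) and Prdm16 (3.35) stand far to the right, and the intervals of the other genes except Prdm4 include 0.

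Mecom and Prdm16 act with corepressors, coactivators and chromatin enzymes, and a list of 15 such cofactors was described next. In limma 3 of the 14 measured rose toward LSK, 0 fell and 11 did not pass, beside 3.84% higher over all genes, and the median log2 difference was -0.03, beside -0.02 over all genes. The 3 were acetyltransferases and a signal transducer. Crebbp, which encodes the acetyltransferase CBP, had log2 intensities of 11.62, 11.69 and 11.39 in LSK and of 10.64, 10.66 and 10.42 in LK (1.99-fold, limma adjusted p = 0.0141). Kat2b, which encodes the acetyltransferase PCAF, had 8.26, 8.60 and 8.35 in LSK and 7.48, 7.30 and 7.52 in LK (1.96-fold, limma adjusted p = 0.0156). Both genes separated the populations on the probe set that stood for them. Over all probe sets, 1 of 4 passed for Crebbp, with log2 differences from 0.05 to 0.99, and 1 of 3 for Kat2b, with 0.25 to 0.97.

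Smad3, the TGF-beta signal transducer that Evi1 binds, was the other one. It belonged to the list, and it was named here after its values were seen. It was 1.73-fold higher in LSK (limma adjusted p = 0.0447) on the probe set that stood for it. Its 3 probe sets had log2 differences from -0.06 to 0.79, 0 of them passed over all probe sets, and their mean, at 0.32, did not pass over all genes (limma adjusted p = 0.173). The CtBP corepressors had log2 differences of -0.03 (Ctbp1, adjusted p = 0.944) and -0.45 (Ctbp2, adjusted p = 0.189), and the H3K9 methyltransferase genes of -0.08 (Ehmt1, adjusted p = 0.867) and -0.95 (Ehmt2, adjusted p = 0.271, and 0.0379 with replicate numbers as a block). These 4 genes were also named after their values were seen. With that block 4 cofactors were higher in LSK and 1 lower, where 1278 of all genes were higher and 1339 lower. Cebpb, which encodes the myeloid factor C/EBP beta, joined toward LSK (log2 difference 0.67, limma adjusted p = 0.329, and 0.0431 with the block) and was also named after its values were seen. When either LSK replicate 1 or LK replicate 3 was left out, 0 cofactors were higher in LSK.

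Genes described as controlled by Mecom or Prdm16 went in both directions. In limma 2 of the 11 measured rose toward LSK, 1 fell and 8 did not pass, beside 3.84% higher and 2.89% lower over all genes. The median log2 difference was 0.53, beside -0.02 over all genes, and 0.16 with the 3' over 5' gap of the control probe sets as a covariate. Adgrg1, an adhesion receptor also known as Gpr56, had log2 intensities of 8.97, 8.36 and 8.61 in LSK and of 7.78, 6.77 and 6.43 in LK (3.15-fold, limma adjusted p = 0.0448), on a probe set that may cross-hybridise, as its suffix tells. Neither of its 2 probe sets passed over all probe sets, with log2 differences of 1.65 (adjusted p = 0.0632) and 1.64 (adjusted p = 0.0531). Erg, an ETS factor of stem cells, had 6.37, 5.69 and 6.53 in LSK and 4.89, 4.61 and 4.72 in LK (2.75-fold, limma adjusted p = 0.0189). Of the 2 Erg probe sets 1 passed over all probe sets, and their log2 differences were 1.46 and 1.22. On both genes every LSK array was above every LK array.

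Zbtb16, which encodes the zinc finger factor PLZF, was lower in LSK. It had log2 intensities of 5.64, 5.90 and 5.96 in LSK and of 6.96, 7.13 and 6.93 in LK (2.25-fold, limma adjusted p = 0.00801), on a probe set that, by its suffix, may also cross-hybridise. Of its 3 probe sets this was the only one past the threshold over all probe sets, and the others had log2 differences of -0.63 and 0.07. With replicate numbers as a block, 1278 of all genes were higher in LSK and 1339 lower. Of the described genes, 5 were higher and 3 lower with that block. Those that joined, named after their values were seen, were Fos, an immediate early gene (log2 difference 0.91, limma adjusted p with the block 0.0174), the integrin gene Itga6 (0.62, 0.047) and the cell cycle inhibitor gene Cdkn1c (0.53, 0.0496). Toward LK they were the mitofusin gene Mfn2 (-1.23, 0.0325) and Spi1, which encodes the myeloid factor PU.1 (-0.66, 0.0392). Leaving out LSK replicate 1, LK replicate 2 or LK replicate 3 left 0 higher. Leaving out LSK replicate 2 or 3 left 1 higher, and in the fit that lacked LSK replicate 3 there were 2 lower.

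In the B and plasma cell circuit around Prdm1, 1 of 9 measured genes was higher in LSK, 0 were lower and 8 did not pass in limma, with a median log2 difference of 0.09 and the same background of 3.84%, 2.89% and -0.02 over all genes. The gene was Bach2, a repressor of Prdm1 in B cells, with log2 intensities of 5.59, 4.76 and 5.57 in LSK and of 3.72, 4.24 and 3.80 in LK (2.62-fold, limma adjusted p = 0.0332). Its 3 probe sets had log2 differences from 1.03 to 2.10, and 2 of them passed over all probe sets. The call was lost without LSK replicate 1 (limma adjusted p = 0.111), LSK replicate 3 (0.0722), LK replicate 1 (0.0894) or LK replicate 3 (0.122). Xbp1, a transcription factor of secretory cells, had a log2 difference of -1.43 that did not pass (limma adjusted p = 0.0725) and passed toward LK with replicate numbers as a block (0.00712). In the fit that lacked LK replicate 1, 1 gene of the circuit was lower.

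**Figure D4:**
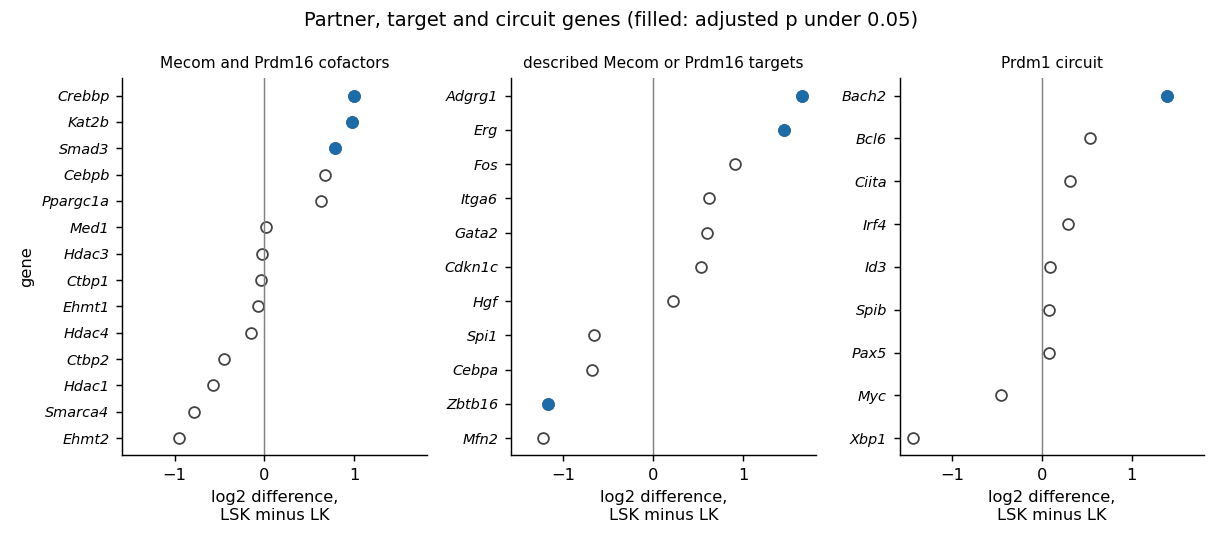
Log2 difference between LSK and LK of each measured gene in the lists of Mecom and Prdm16 cofactors, of genes described as controlled by them, and of the Prdm1 circuit, filled where the limma adjusted p over all genes passed. The filled points are Crebbp, Kat2b and Smad3, then Adgrg1, Erg and Zbtb16, then Bach2, and only Zbtb16 lies on the side of LK.

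The genes most like each member were sought by Pearson's r of log2 intensity over the 6 arrays, among 6482 genes, as a description in which the split into 2 populations and the shared replicate numbers enter every value. Nearest to Mecom were Hlf, a transcription factor of stem cells (r = 0.999, log2 9.70 in LSK and 5.57 in LK), Calcrl, a receptor of the calcitonin gene-related peptide family (r = 0.998, 10.89 and 8.49), and the exchange factor gene Arhgef5 (r = 0.998, 5.83 and 4.46). Nearest to Prdm16 were the interferon-induced membrane protein gene Ifitm1 (r = 0.9996, 11.16 and 9.05), Calcrl (r = 0.998) and Arhgef5 (r = 0.998). Both lists therefore name Calcrl and Arhgef5.

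Nearest to Prdm1 were the phosphatase gene Ppm1h (r = 0.996), the adaptor gene Sla (r = 0.977) and the protease inhibitor gene Spint2 (r = 0.974), with log2 differences between the populations of 0.34, 0.43 and 0.17. Nearest to Prdm2 were the respiratory chain gene Cox7c (r = 0.954), 1700023D09Rik (r = 0.947) and the proton pump gene Atp6v1d (r = 0.946), with log2 differences of -0.04, -0.36 and -0.20. These 6 genes did not pass limma's threshold, with adjusted p between 0.363 and 0.965.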

How the data were processed

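RNA of sorted LSK and LK cells was amplified with a linear method and hybridised to Affymetrix mouse expression arrays, as the labels state. The authors deposited a linear intensity for each probe set. The submitters' processing notes name RMA, affy and R 2.11.0. RMA brings the arrays to a common distribution, which hides any global shift, and folds of dim probe sets are compressed. Of 45037 probe sets other than controls, 34945 carried 1 symbol, 932 several and 9160 none here, and 34741 symbols were updated through RefSeq.

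LSK and LK were compared on log2 intensities by limma 3.58.1 under R 4.3.3 (lmFit and eBayes with a term for population, two-sided). P-values were adjusted by Benjamini-Hochberg across the whole table of genes or of probe sets, with a threshold of 0.05. The code was tested on simulated data. The members and lists were chosen with earlier results of these data known. Named genes are the members, the other Prdm genes, the genes with the largest differences past the threshold in each list, and the 3 genes most like each member among those with a mean log2 of at least 5 in a population. Further genes, among them Jchain, Vcam1, Cdh5, Tek and Xbp1, were named outside this rule.

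Samples with the same number deviated together (correlations across genes of 0.42, 0.43 and 0.27, at most 0.039 between different numbers), so the numbers were taken to pair them, a pairing that comes from the data. Deviations were taken from each population's mean, so the low values between different numbers follow in part from the high ones at the same number. Alternatives covered the replicate block, normalisation, a filter on dim probe sets, how a gene is represented, variance models, array weights, the covariate for the 3' over 5' gap and left-out arrays. No 2 arrays held identical values (0 pairs).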

Additional observations from a re-analysis of the deposited data

How the results depend on the processing

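Mecom and Prdm16 kept their direction and their call in all 16 alternatives over genes, with log2 differences from 1.70 to 5.13 and from 1.33 to 3.49. The lowest of each came from the mean of a gene's probe sets. Adjusted over probe sets, with the 3' over 5' gap of the controls as a covariate, 0 of the 11 probe sets passed (0.096 for 1438325_at and 0.0687 for 1440870_at). Prdm1 kept its direction without a call in its 15 alternatives (0.05 to 0.53), and had no value under the filter on dim probe sets. Prdm2 turned to 0.21 with the mean of probe sets, 1.03 with the probe set of largest SD, 0.043 without LSK replicate 2, 0.22 without either array numbered 2 and 0.44 with the covariate. Leaving out 1 array in turn gave -0.40 to 0.04 for Prdm2. Probe set 1429251_at turned with it (0.043, 0.22 and 0.44), and 1429308_at turned without both arrays numbered 2 (-0.048). The cause was not tested.

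Among the other Prdm genes, 0 passed in any of the 16 alternatives. Signs turned for Prdm6 (-0.011 without LSK replicate 2, -0.0058 without LK replicate 3), Prdm8 (-0.022 with the covariate), Prdm10 (-0.031 without LSK replicate 1, -0.15 with the covariate), Prdm15 (0.059 with the covariate) and Prdm14 (-0.016 with array weights, -0.15 without LSK replicate 2, -0.082 without both arrays numbered 2, -0.059 with the covariate). Without 1 array, Prdm6 ranged from -0.011 to 0.11, Prdm10 from -0.031 to 0.34 and Prdm14 from -0.15 to 0.16.

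Over all genes, 699 were higher and 526 lower in LSK. The numbers were 1278 and 1339 with the replicate block, 1305 and 1301 with array weights, 371 and 166 without both arrays numbered 2, and 25 and 0 with the covariate. The number lower was 836 with renewed quantile normalisation and 809 under the filter. Without 1 array the number higher ranged from 230 (without LK replicate 3) to 584 and the number lower from 76 (without LK replicate 3) to 685. It was 243 and 79 without LSK replicate 1, and 204, 279 and 312 lower without LSK replicate 2, LK replicate 1 and LK replicate 2 (455 higher without the last).

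Of the cofactors, the number higher was 1 with the probe set of largest SD, 0 without both arrays numbered 2 and 0 with the covariate, and from 0 to 3 without 1 array, and with the replicate block 4 were higher and 1 lower. Of the described targets, the number higher was 5 with the replicate block or array weights, 1 with the probe set of largest SD or without both arrays numbered 2, 0 with the covariate, and from 0 to 3 without 1 array. The number lower was 3 with the replicate block or array weights, 2 with renewed quantile normalisation, cyclic loess or the filter, 0 with the covariate, and from 1 to 2 without 1 array. In the Prdm1 circuit the number higher was 0 with the covariate and from 0 to 1 without 1 array, and the number lower was 1 with the replicate block, the filter, trend and robust variance or array weights, and from 0 to 1 without 1 array. Among the members, their probe sets, the other Prdm genes and the list genes past the threshold, the replicate block changed the call of 1453068_at alone. Of the within-array comparisons, only that of 1429251_at with 1444123_at (0.028) turned, to -0.019 with renewed quantile normalisation and from -0.19 to 0.33 without 1 array. Few arrays and the floor of the intensities limit what can be seen for dim genes such as Prdm1.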

Other observations

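The genes next to the members on their chromosomes, 3 measured protein-coding genes on each side by their order in RefSeq's GRCm38.p6 annotation, were examined after the members' values were seen. Of these 24 neighbours, 0 passed limma's threshold over all genes, where 6.73% did. An unadjusted p under 0.05 was found for 4, where a limma p of 0.0499 ranked 4082 among all 18193 genes. With replicate numbers as a block 1 passed, Atg5, where 1278 of all genes were higher in LSK and 1339 lower. Beside Mecom lie Egfem1 (log2 2.68 in LSK and 2.71 in LK) and Actrt3 (2.49 and 2.90), with log2 differences of -0.03 (limma adjusted p = 0.923) and -0.42 (limma adjusted p = 0.124). Mynn, a zinc finger gene next to Actrt3, had 6.39 ± 0.17 in LSK and 6.40 ± 0.24 in LK (SD, n = 3), and Rpl22l1, a ribosomal protein paralog on the other side, had 11.15 ± 0.10 and 10.91 ± 0.19. Around Prdm16 the 6 neighbours had log2 differences between -0.09 for Megf6 and 0.27 for Arhgef16. Atg5, an autophagy gene beside Prdm1, had 4.38 ± 0.58 in LSK and 5.29 ± 0.58 in LK (log2 difference -0.91, limma adjusted p = 0.222, and 0.0131 with the block).

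Prdm16os, a long non-coding RNA gene that the annotation places next to Prdm16, was also added after its values were seen. Its single probe set had log2 intensities of 2.40, 2.57 and 2.38 in LSK and of 2.48, 2.47 and 2.56 in LK. These are among the lowest on the array, at percentile 4.46 in LSK and 7.71 in LK, and the log2 difference was -0.05 (95% interval -0.33 to 0.23, limma adjusted p = 0.867 over probe sets).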
